A study of Mus musculus with 6 samples.

Results

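The comparison described here is hypoxia alone against control in mProx24 cells, a proximal tubular cell line from the kidney of C57B6 mice. It rests on the 2 arrays labelled Hypoxia and Control, of 6 arrays in the series. The hypoxia cells were at 1% O2 and the control cells at 20% O2, and both are labelled NG and PBS, with no palmitate and no rapamycin. Per the labels' protocols, cells were kept at 1% oxygen for 12 hours in the same medium with 10% fetal calf serum, and palmitate at 150 µM with 0.15% albumin followed for 9 hours where it was given. Whether cells of the hypoxia array stayed at 1% oxygen during those further 9 hours is not given in the sources used here. The other 4 arrays carry the labels High glucose, High FFAs, Triple stimuli and Triple stimuli + Rapamycin, the last with 0.4 µg/ml rapamycin, a drug that blocks mTORC1, a growth-promoting kinase complex.

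Cells sense oxygen through prolyl hydroxylases that use it to mark the alpha subunits of the hypoxia-inducible factors (HIF) for destruction through the von Hippel-Lindau protein. When oxygen is short the alpha subunits persist, pair with ARNT and bind the core of the hypoxia response element in the genes they activate, among them genes of glycolysis, vessel growth and mitochondrial turnover. The proximal tubule takes most of its energy from mitochondrial oxidation, works at low oxygen tension, and is a main site of injury in the hypoxic kidney.

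Levels are given as the log2 signal relative to the 75th percentile of the array, so a level of 0 is that percentile, and a difference is the hypoxia level minus the control level. Of the genes on the array, 15836 had a probe that the scanner software called well above background on both arrays, and only these are called measured. A gene is called higher or lower where the arrays differed by at least 1 on this scale, which is 2-fold. With 1 array for each condition there was no replicate, so no test was made and no p-value exists for any difference. The spread that can be seen lies within an array. The median SD of the difference over repeated spots of the same probe was 0.077, or 0.196 for probes below a level of -1, and the median SD between different probes of the same gene was 0.112. These cover the error of spots and probes and not that of cells, RNA or arrays.

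In hypoxia 399 of 15836 genes, 2.52%, were higher and 45, 0.284%, were lower. Of the higher genes 121 differed at least 3-fold, 72 at least 4-fold and 17 at least 8-fold, whereas 6 of the lower genes differed at least 3-fold and 2 at least 4-fold. The median difference over all genes was -0.025, and 46.2% of genes were above 0. Array features without a RefSeq symbol count as genes in these numbers. Of the 11818 genes with a symbol 237 were higher, 2.01%. All 6 arrays lay on 1 slide with the arrays at 1% oxygen in one row and those at 20% in the other, so an effect of oxygen and one of slide position cannot be told apart. Among the dimmest quintile of genes, 10.5% were higher where the spot lay in rows 1 to 64 of the array, against 1.83% to 4.73% in the 5 other bands of 64 rows. Between rows 65 and 384, 296 of 13118 genes were higher, 2.26%, and 38 were lower, 0.29%. In rows 1 to 64 the shares were 3.79% and 0.258%, and among 10469 bright genes, with a level of at least 0 on both arrays, they were 1.85% and 0.124%. Genes described below by their values whose spots lie in rows 1 to 64 are marked as such at first mention of the value. Counts of list members are to be read against the shares over all genes, and a list with 0 or 1 member called is not set apart by its count.

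**Figure D1:**
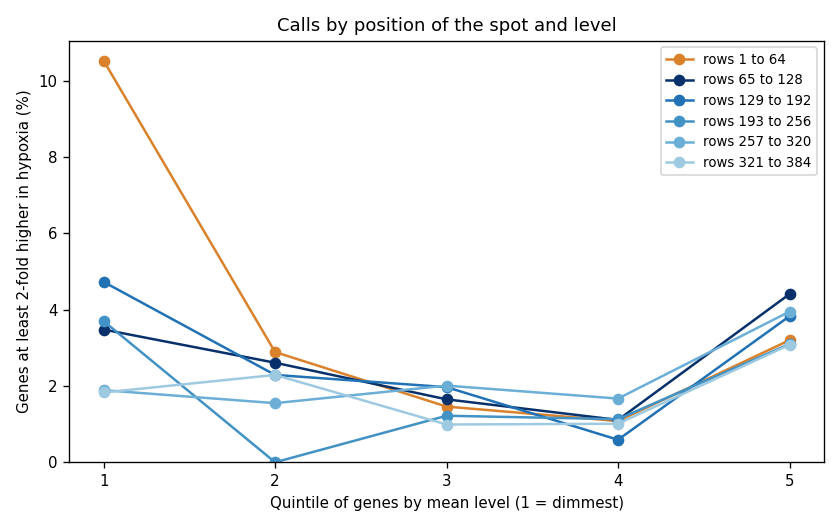
The percentage of genes at least 2-fold higher in hypoxia than in control (vertical axis) is plotted for 5 groups of genes of increasing mean level (horizontal axis), with a line for each band of 64 spot rows. Rows 1 to 64 stand above the other bands in the dimmest quintile, at 10.5%, and by little in the next, at 2.89% against up to 2.61%, and lie among them in the 3 brighter ones.

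The cell type was checked against 10 markers of the proximal tubule, and 6 of them passed the background call on each array. Lrp2 and Cubn, the endocytic receptors megalin and cubilin, had levels of 3.74 and 0.14 in hypoxia and 3.53 and -0.15 in control. The water channel gene Aqp1 was at 3.09 in hypoxia and 3.20 in control. The phosphate carrier Slc34a1, the glucose carrier Slc5a2, the organic anion carrier Slc22a6 and the transcription factor Hnf4a were not well above background on either array. Of 9 leukocyte markers 4 were above background on both arrays, led by Csf1r at 4.47 in hypoxia and 3.77 in control, while Ptprc, Adgre1 and Lyz2 were not. The linear signals of those 9 markers summed to 34.5 times the 75th percentile in hypoxia and 23.6 times in control, and their part in the results was not tested. RNA came from whole cultures, so fewer cells of a kind and less RNA per cell cannot be told apart.

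Promoters of 5 of the higher genes are printed because they hold the letters of the hypoxia response element core. Each is the stretch from 250 bases before to 50 after the annotated start, 300 bases in all, from RefSeq on GRCm38.p6. The motifs searched on both strands were ACGTG and, as the second form of the same core, GCGTG. Capitals mark either motif or its reverse complement, and overlapping matches run together. The first motif is also contained in the palindromic E-box, and the second in the core bound by the aryl hydrocarbon receptor. The genes are Slc16a3 (chr11:120948817-120949116, plus strand), which encodes the lactate exporter MCT4, Pgk1 (chrX:106186850-106187149, plus strand), a glycolytic kinase, Bnip3 (chr7:138909457-138909756, minus strand), a mitophagy receptor, Pygl (chr12:70227634-70227933, minus strand), a glycogen phosphorylase, and Ankrd37 (chr8:45999801-46000100, minus strand), an ankyrin repeat protein known as a HIF target.
Slc16a3: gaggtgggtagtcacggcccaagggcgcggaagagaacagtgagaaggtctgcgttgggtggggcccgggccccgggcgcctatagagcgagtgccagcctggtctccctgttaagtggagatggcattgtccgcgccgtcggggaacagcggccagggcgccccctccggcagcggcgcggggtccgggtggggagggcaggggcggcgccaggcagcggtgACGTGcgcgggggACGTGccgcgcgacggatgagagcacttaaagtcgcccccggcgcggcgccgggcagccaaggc
Pgk1: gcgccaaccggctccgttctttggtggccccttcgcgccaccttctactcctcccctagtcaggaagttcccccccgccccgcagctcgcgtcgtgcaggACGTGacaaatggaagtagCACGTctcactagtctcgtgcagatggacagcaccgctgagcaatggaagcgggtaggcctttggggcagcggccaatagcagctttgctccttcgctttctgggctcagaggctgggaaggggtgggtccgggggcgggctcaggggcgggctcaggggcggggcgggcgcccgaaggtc
Bnip3: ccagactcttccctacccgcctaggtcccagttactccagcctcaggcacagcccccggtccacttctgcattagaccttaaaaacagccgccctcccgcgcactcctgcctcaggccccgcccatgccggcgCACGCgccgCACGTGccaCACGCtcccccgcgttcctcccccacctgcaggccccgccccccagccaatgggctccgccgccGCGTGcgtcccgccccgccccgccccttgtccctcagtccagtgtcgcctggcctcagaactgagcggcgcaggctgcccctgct
Pygl: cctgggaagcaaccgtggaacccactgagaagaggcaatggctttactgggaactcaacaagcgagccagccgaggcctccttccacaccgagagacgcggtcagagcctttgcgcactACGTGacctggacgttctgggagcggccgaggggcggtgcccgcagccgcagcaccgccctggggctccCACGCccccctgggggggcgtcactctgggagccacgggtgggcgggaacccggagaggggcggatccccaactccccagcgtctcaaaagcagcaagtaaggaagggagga
Ankrd37: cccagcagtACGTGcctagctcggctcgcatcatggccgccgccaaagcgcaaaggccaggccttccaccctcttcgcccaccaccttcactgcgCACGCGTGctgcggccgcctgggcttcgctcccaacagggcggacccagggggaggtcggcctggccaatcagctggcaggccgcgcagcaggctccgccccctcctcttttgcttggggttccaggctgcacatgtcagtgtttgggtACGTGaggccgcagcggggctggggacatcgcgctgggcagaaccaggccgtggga

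Slc16a3, Pgk1 and Ankrd37 each held 2 separate matches to ACGTG and Pygl held 1. Bnip3 held 1 site, a palindromic E-box that matches on both strands. The promoter of Vegfa held 0 matches to either motif, which says only that these letters are not in that window. Of the 237 higher genes with a RefSeq symbol, 181 had a promoter in the table, and 32.6% of these held ACGTG, against 26.3% of 9370 measured genes and 19.7% of 27025 promoters in the table. With either motif the shares were 59.1% of the higher genes, 64.1% of measured genes and 43.8% of all promoters. Among 31 lower genes with a promoter 19.4% held ACGTG. The second form, GCGTG, occurred in 48.1% of the higher genes and 52.5% of measured genes. These shares are descriptions, with no test.

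**Figure D2:**
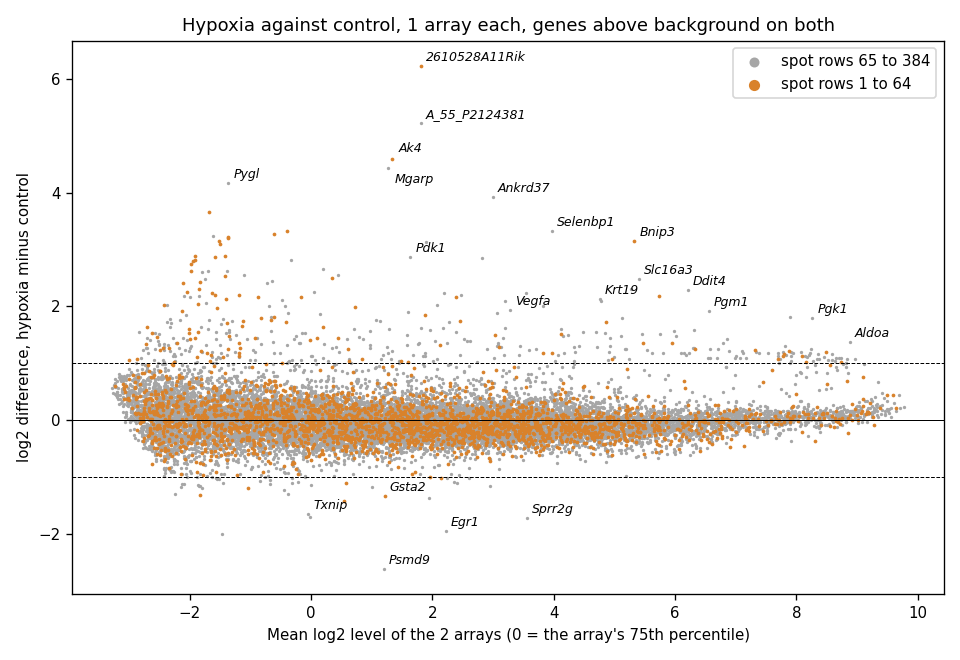
Each point is a gene measured on both arrays, with the mean of its hypoxia and control log2 levels on the horizontal axis and the log2 difference, hypoxia minus control, on the vertical axis. Orange points have spots in rows 1 to 64, grey points in rows 65 to 384, and dashed lines mark a 2-fold difference, past which 399 genes lie above and 45 below.

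The oxygen-sensing machinery itself differed most in its feedback members. Of 12 measured genes of this list 2 were higher and 0 lower. Hif1a, the oxygen-regulated subunit controlled mainly at the level of protein, was at 1.43 in hypoxia and 1.42 in control. Epas1, which encodes HIF-2 alpha, was at 3.04 in hypoxia and 2.84 in control, and the shared partner Arnt was at 2.11 in hypoxia and 2.08 in control. Transcripts of these subunits were thus close to equal on the 2 arrays, the largest difference being 0.20. Ankrd37 reached 4.95 in hypoxia against 1.03 in control, a 15.1-fold difference (3.92; probe on mm9 chr8:47082404-47082463). The prolyl hydroxylase Egln1 was at 0.63 in hypoxia and -0.91 in control, a difference of 1.54. Egln2, another prolyl hydroxylase, differed by -0.41 and the asparaginyl hydroxylase Hif1an by -0.39. Egln3, the third prolyl hydroxylase, was at 0.72 in hypoxia and not well above background in control, so it was at least 20.7-fold higher there, the control being set at the lowest signal called well above background on that array. Siah2, a ubiquitin ligase that acts on prolyl hydroxylases, Cited2, which competes with HIF for its coactivator, and Vhl itself differed by 0.93, 0.81 and 0.61, all short of 2-fold.

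Glucose uptake and glycolysis formed the list with the highest median. Of 24 measured members 12 were higher and 0 lower, beside 2.52% of all genes, and the median difference was 0.95, against -0.025 over all genes. At the entry step Slc2a1, the glucose transporter GLUT1 (spot in rows 1 to 64), was at 5.728 in hypoxia and 4.002 in control. Hk2, an inducible hexokinase, was at 3.26 in hypoxia and 1.88 in control. Hk1, the housekeeping hexokinase, was nearer to equal, at 8.23 in hypoxia and 7.90 in control.

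Phosphofructokinase commits sugar to glycolysis, and its isoforms differed unequally. Pfkp was at 3.57 in hypoxia and 1.36 in control, Pfkl was at 4.92 in hypoxia and 3.32 in control, and Pfkm differed by 0.28. A second probe of Pfkp gave 0.71, so the size of its difference depends on the probe. Pfkfb3, whose product makes an activator of phosphofructokinase, was at 2.54 in hypoxia and 0.65 in control, while its relatives Pfkfb1 (rows 1 to 64) and Pfkfb4 differed by 0.04 and -0.19. Within the aldolases Aldoc was at 4.25 in hypoxia and 1.39 in control, a 7.24-fold difference, whereas Aldoa was at 9.56 in hypoxia and 8.19 in control.

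Further down the pathway Gpi1 (1.18), Tpi1 (1.07), Pgk1 (1.80) and Eno2 (1.27) were higher. Pgam1, Pkm, Ldha (rows 1 to 64) and Eno1 (rows 1 to 64) lay between 0.64 and 0.83, and Gapdh, often taken as a constant reference gene, differed by 0.38. The Pgk1 probe was placed by the files on mm9 chromosome 3 while the gene lies on chromosome X, so a near-identical copy of the gene may share its signal, as with Gm5537 on chromosome 3 at 1.81. At the exit, Slc16a3 was at 6.64 in hypoxia and 4.17 in control, and a second probe of the gene gave 2.50 beside 2.48. Bsg, which encodes the chaperone of this exporter, differed by 1.06. Ldhb, the lactate dehydrogenase subunit of oxidative tissues, was at 3.89 in hypoxia and 3.87 in control.

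**Figure D3:**
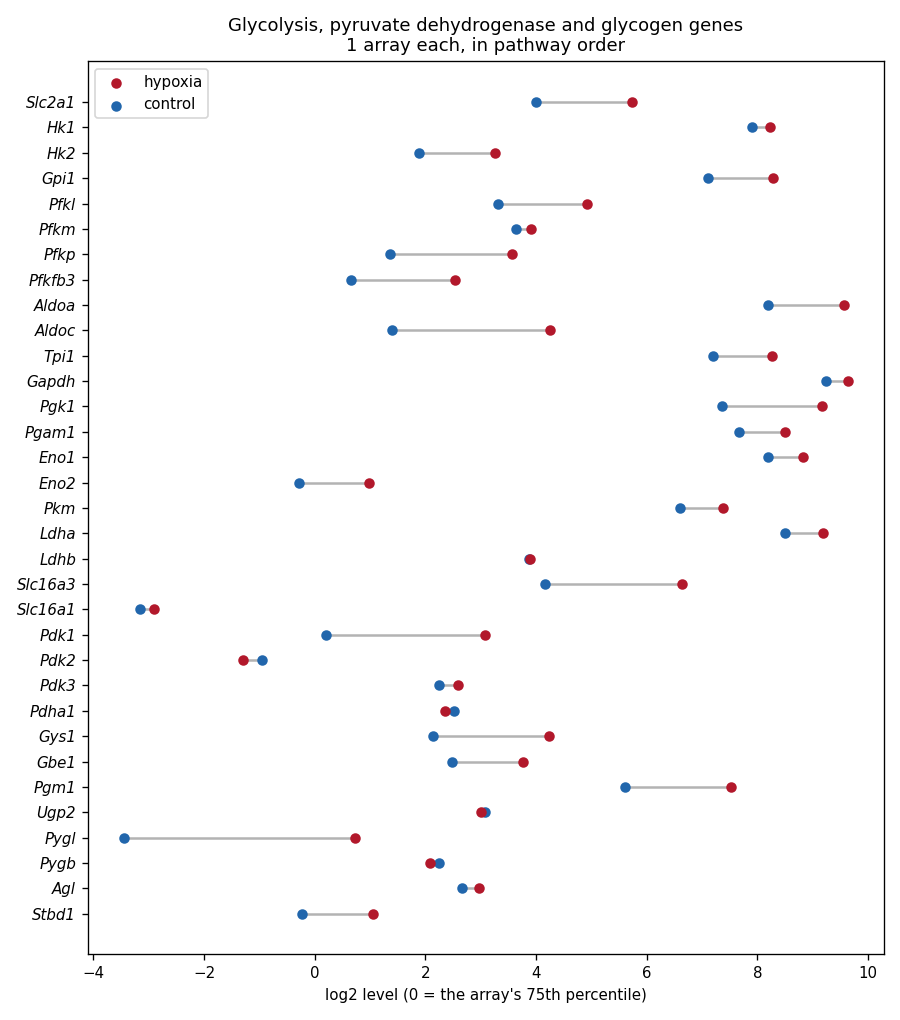
The log2 level of 33 genes of glucose uptake, glycolysis, pyruvate dehydrogenase control and glycogen metabolism is shown on the hypoxia array (red) and the control array (blue), 1 array each, with a grey line joining the pair. Pygl, Pdk1, Aldoc and Slc16a3 have the longest lines, and Ldhb, Pdha1, Ugp2 and Pygb have points that nearly coincide.

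At the step from pyruvate to the citric acid cycle a single gene stood apart. Pdk1, the kinase that switches off pyruvate dehydrogenase, was at 3.07 in hypoxia and 0.21 in control, a 7.26-fold difference. It was the 1 gene of 31 measured in the pyruvate dehydrogenase and citric acid cycle list that was higher, and 28 of the 31 lay below 0, with a median of -0.13. Its relatives Pdk3, Pdk4 and Pdk2 (rows 1 to 64) differed by 0.35, -0.24 and -0.34. The pyruvate carrier subunits Mpc1 and Mpc2 (rows 1 to 64) differed by -0.39 and -0.49, the pyruvate dehydrogenase component Pdhx by -0.68, and Idh3a of isocitrate dehydrogenase by -0.53, each short of 2-fold.

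Respiratory chain genes lay slightly below 0 as groups, with a few members well apart. Of 36 measured complex I genes 33 were below 0 (median -0.13), of 16 ATP synthase genes 14 (median -0.13), and of 64 mitochondrial ribosomal protein genes 55 (median -0.20), with 0 lower by 2-fold in each. Of 26 genes in the list of complexes III and IV 18 were below 0 (median -0.09), 3 were higher and 0 lower. That list is not limited to subunits and includes Higd1a, its highest member. Over all genes 46.2% were above 0. Genes of the fourth quintile by level had medians from -0.112 to -0.03 over the row bands, and those of the brightest quintile from -0.05 to -0.003. The medians of complex I, ATP synthase and mitochondrial ribosomal proteins lay below both ranges, by small amounts. Whether these lists differ from other genes of like level was not tested. The lowest single members included Mrpl35 of the mitochondrial ribosome at -0.97, Ndufa8 (rows 1 to 64) of complex I at -0.44 and the ATP synthase gene Atp5g1 at -0.32, each short of 2-fold. Members far above 0 included Higd1a, which encodes a hypoxia-induced protein of the inner membrane, at 7.10 in hypoxia and 5.51 in control. Lonp1, a matrix protease that degrades a cytochrome oxidase subunit when oxygen is low, was at 7.23 in hypoxia and 6.15 in control. Cox7a1, a muscle-type cytochrome oxidase subunit, differed by 1.12 and the complex I subunit Ndufv3 by 1.08. Mgarp, a mitochondrial protein known as a HIF target, had the highest difference among named genes in rows 65 to 384, at 3.47 in hypoxia and -0.95 in control, a 21.5-fold difference. Pprc1, a coactivator that drives mitochondrial biogenesis, lay at the other end of its list at -0.98.

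Among receptors that mark mitochondria for autophagy the pair that is induced by hypoxia in other cells stood apart from the rest. Bnip3 (rows 1 to 64) was at 6.90 in hypoxia and 3.76 in control, and its other probes gave 3.11 to 3.62 beside 3.14. Bnip3l was at 6.01 in hypoxia and 4.22 in control. The other 10 measured receptors and adaptors, Pink1 and Sqstm1 (rows 1 to 64) among them, lay between -0.26 and 0.24. Core autophagy genes showed 0 of 31 higher and lysosomal genes 1 of 38, the protease gene Ctsh at 1.88, beside 2.52% of all genes, so neither count differs much from that share.

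Adenylate kinases buffer adenine nucleotides, and 1 of them had the highest difference of any gene whose symbol is not a clone or a predicted model. Ak4 (rows 1 to 64), the isoform of the mitochondrial matrix, was at 3.64 in hypoxia and -0.95 in control. Ak1 and Ak3 differed by -0.44 and -0.34. Ak4 was also higher on the other 2 arrays at 1% oxygen than on the other 2 at 20%, by 3.47.

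Glycogen genes that were higher covered both synthesis and breakdown. Of 17 measured genes 5 were higher and 0 lower. Gys1, glycogen synthase, was at 4.24 in hypoxia and 2.15 in control, with 1.99 from a second probe beside 2.10. Pgm1, phosphoglucomutase, was at 7.52 in hypoxia and 5.60 in control. Gbe1, the branching enzyme, differed by 1.28, as did Stbd1, which tethers glycogen to membranes. These 4 were above the 75th percentile on the hypoxia array. Pygl, whose product releases glucose units from glycogen, was at 0.72 in hypoxia and -3.45 in control, an 18.0-fold difference whose size rests on a dim control value. The other phosphorylases Pygb and Pygm (rows 1 to 64) differed by -0.16 and 0.21. Slc37a4, the glucose-6-phosphate transporter of the endoplasmic reticulum, was higher too, by 1.42.

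**Figure D4:**
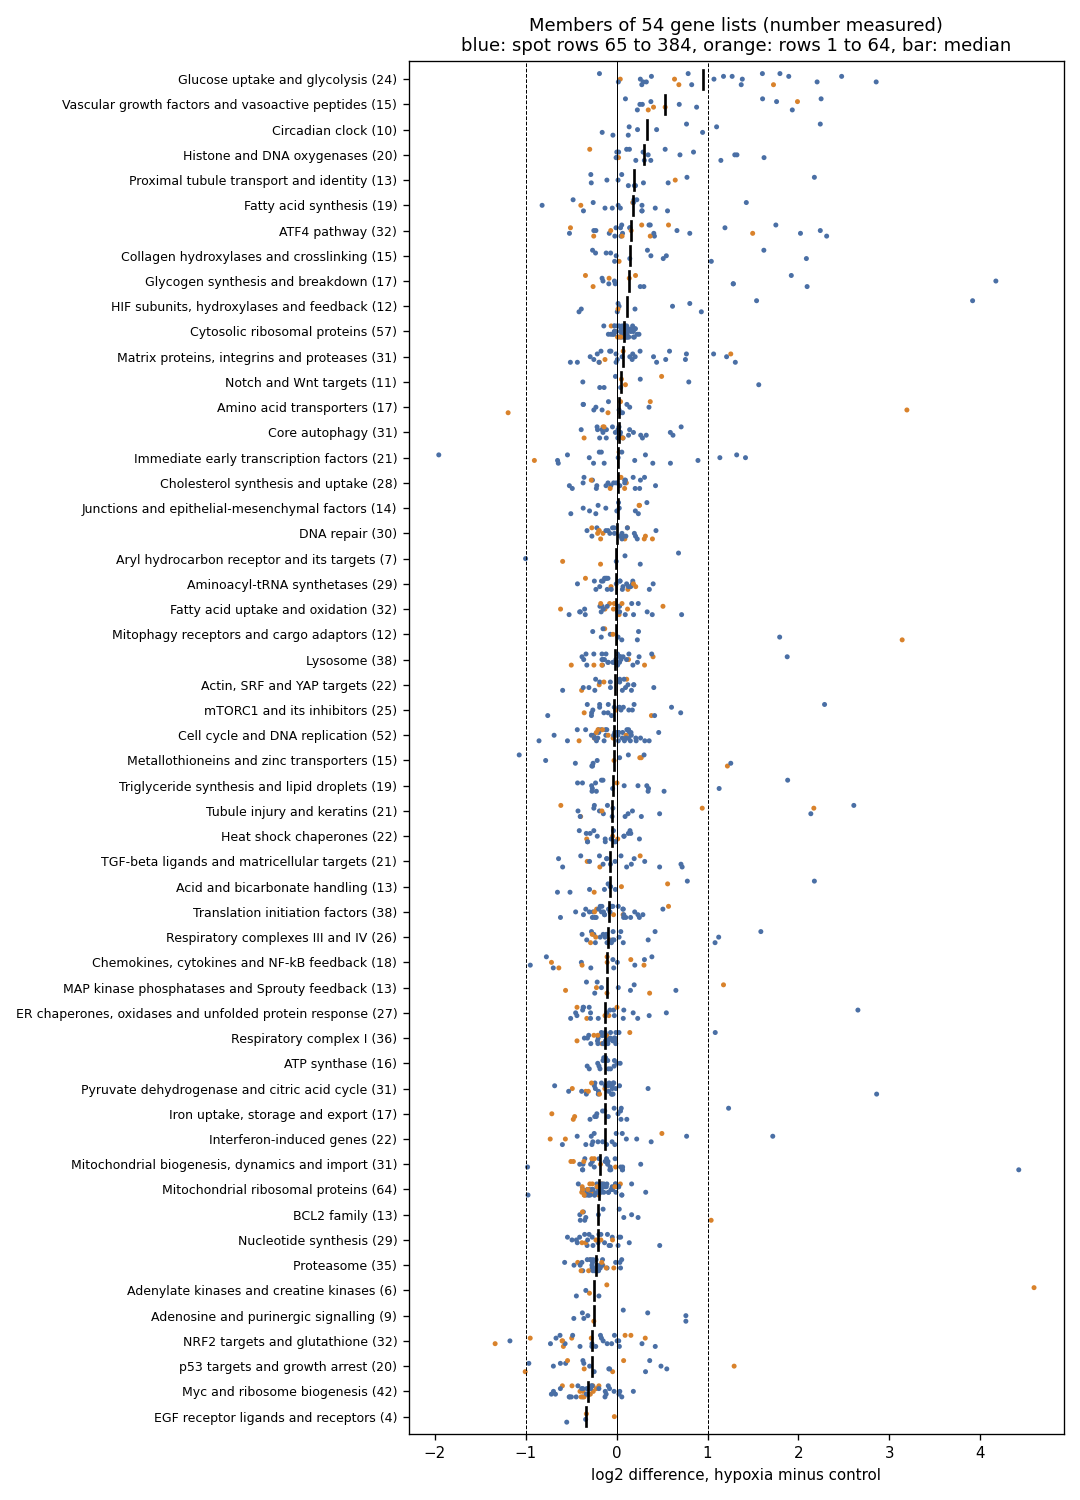
Every measured member of the 54 gene lists is drawn as a point at its log2 difference, hypoxia minus control (horizontal axis), in blue for spot rows 65 to 384 and orange for rows 1 to 64. Lists run down the page by their median (black bar), from glucose uptake and glycolysis at 0.95 to EGF receptor ligands and receptors at -0.34, and dashed lines mark a 2-fold difference.

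Signals that act on vessels were the second list by median, 0.53. Of 15 measured members 5 were higher, beside 2.52% of all genes, and all 15 were above 0. Among the 8 members bright on both arrays 1 was higher, and the median was 0.33, so most of the calls were on dim genes. On the other 4 arrays, compared below, 2 of 11 measured members were higher at 1% oxygen, beside 1.02% of all genes, and 3 were below 0. Vegfa, the main endothelial growth factor, was at 4.24 in hypoxia and 2.31 in control. Flt1, a receptor for it that also exists as a secreted trap, was at 1.18 in hypoxia and -1.07 in control, and a second probe gave 3.34 beside 2.25. Adm2 and Angpt4, an adrenomedullin-like peptide and an angiopoietin, were higher by 1.61 and 1.76, and Vegfd (rows 1 to 64) by 1.99. Epo, the hormone of red cell production, was dim on both arrays at -2.31 in hypoxia and -3.00 in control. Its receptor Epor was at -1.03 in hypoxia and -2.11 in control. Of 7 endothelial markers Kdr was at 3.31 in hypoxia and 3.08 in control and Plvap was at 0.47 in hypoxia and -0.88 in control, while Cdh5, Tek and Emcn were not well above background on either array.

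Collagen-modifying enzymes use oxygen as a substrate, and 3 of 15 measured were higher. P4ha2 and P4ha1, the catalytic subunits of prolyl 4-hydroxylase, were at 5.82 and 2.53 in hypoxia and 3.73 and 1.49 in control. Plod2, a lysyl hydroxylase, was at 2.98 in hypoxia and 1.36 in control. Of the matrix list 4 of 31 were higher, among them the laminin chain Lama1 (1.26, rows 1 to 64) and the integrin Itga2 (1.21). Of 21 TGF-beta ligands and targets 0 were called, which is no departure from the 2.52% higher and 0.284% lower over all genes.

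Enzymes that demethylate histones and DNA also need oxygen. Of 20 measured, 4 were higher and 18 were above 0, with a median of 0.30. Kdm4b was at 4.01 in hypoxia and 2.38 in control, and Kdm3a was at 3.72 in hypoxia and 2.42 in control. Both remove methyl groups from lysine 9 of histone H3. Tet2, which oxidises methylcytosine, was at 1.63 in hypoxia and 0.31 in control, and Tet3 differed by 0.85 while Tet1 differed by -0.01. Jmjd6 was higher by 1.15. The members of this list that differed most were thus spread over histone and DNA enzymes.

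Regulators of transcription and of growth signalling included a few with large differences. Bhlhe40, a repressor linked to the circadian clock, was at 3.31 in hypoxia and 1.07 in control, and Nfil3 was higher by 1.10. The core clock genes Clock and Arntl differed by -0.16 and -0.04. Ddit4, which encodes REDD1, an inhibitor of mTORC1, was at 7.35 in hypoxia and 5.06 in control, the 1 higher gene of 25 measured around mTORC1. Its relative Ddit4l differed by -0.76. Of 21 immediate early factors Klf4 (1.42), Junb (1.32) and Ier3 (1.14) were higher, and Egr1 was at 1.24 in hypoxia and 3.20 in control, a difference of -1.96. Cdkn1a (rows 1 to 64), the p21 inhibitor of cyclin-dependent kinases, was higher by 1.29, although 14 of 20 measured p53 targets were below 0. Ccng2, a cyclin linked to growth arrest, was at 0.49 in hypoxia and -0.86 in control.

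The ATF4 list had 6 of 32 members higher, 23 above 0 and a median of 0.15. They were Ndrg1, Vldlr, Ddit3, Aldh1l2, Nupr1 (rows 1 to 64) and Trib3, between 1.19 and 2.31. Ndrg1, a stress-responsive gene, was at 6.43 in hypoxia and 4.12 in control. Vldlr, a lipoprotein receptor, was at 4.67 in hypoxia and 2.43 in control, with 1.88 from a second probe. Ndrg1 and Vldlr are also known as HIF targets. Ddit3, the transcription factor CHOP, was at 3.08 in hypoxia and 1.06 in control. Cth, an enzyme of cysteine synthesis, differed by -0.52. Of 27 measured chaperones and oxidases of the endoplasmic reticulum 1 was higher, the oxidase Ero1a at 1.52 in hypoxia and -1.13 in control, and 19 were below 0, among them Hspa5 (rows 1 to 64) at -0.33.

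Genes of ribosome biogenesis, protein turnover and nucleotide synthesis lay below 0 by small amounts. Of 42 measured genes of Myc and ribosome biogenesis 38 were below 0 (median -0.32), led by Dkc1 at -0.72. Of 35 proteasome genes 32 were below 0 (median -0.23), and of 29 genes of nucleotide synthesis 24 (median -0.20). Of 52 genes of the cell cycle and DNA replication 27 were below 0, and their median of -0.03 was close to the -0.025 over all genes. Ccnd1 at -0.85 and Ccne1 at -0.69, the cyclins of entry into the cycle, lay at the lower end of that list. Cdkn1b at 0.46 and Bub1 at 0.36 lay at its upper end. In those 4 lists 0 genes were called in either direction. Cytosolic ribosomal proteins had a median of 0.09 with 45 of 57 above 0, but -0.14 after quantile normalization, so their side of 0 depends on the scaling.

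Genes of defence against oxidants lay below 0 as a list. Of 32 measured NRF2 targets and glutathione genes 2 were lower, 0 higher and 24 below 0, with a median of -0.27. The glutathione transferases Gsta2 (rows 1 to 64) and Gsta3 were lower, Gsta2 at 0.54 in hypoxia and 1.88 in control. Gsta4 (rows 1 to 64), Txnrd1 and Nqo1 (rows 1 to 64) differed by -0.95, -0.67 and -0.59. Hmox1, haem oxygenase, is also known as an NRF2 target but was counted here in the iron list, and it was higher, at 6.16 in hypoxia and 4.92 in control. The metallothioneins Mt1 (rows 1 to 64) and Mt2 were higher, by 1.22 and 1.26. Cyp1a1, a target of the aryl hydrocarbon receptor, which shares its partner ARNT with HIF, was at -1.26 in hypoxia and -0.26 in control.

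Lipid genes differed in single members. Hilpda, which encodes a lipid droplet protein that inhibits triglyceride breakdown, was at 4.004 in hypoxia and 2.123 in control. Lpin1, a phosphatidate phosphatase, and Acacb, an acetyl-CoA carboxylase, were higher by 1.13 and 1.43. Of 32 measured genes of fatty acid uptake and oxidation and 28 of cholesterol synthesis and uptake 0 were called in either direction, with medians of -0.01 and 0.02. Elovl6, a fatty acid elongase, differed by -0.82.

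Among tubule genes Slc4a4, the basolateral sodium bicarbonate cotransporter of the proximal tubule, was at -0.76 in hypoxia and -2.94 in control. It was the 1 higher gene of 13 measured in the list of proximal tubule transport and identity, where 10 were above 0. The carbonic anhydrases Car12 and Car9 (rows 1 to 64), Car9 being known as a HIF target, differed by 0.78 and 0.56. In the injury and keratin list Krt19 was at 5.83 in hypoxia and 3.69 in control, and Krt42 (rows 1 to 64) was at 3.48 in hypoxia and 1.31 in control. Igfbp1, a binding protein for insulin-like growth factors, was higher by 2.61 from a control level of -3.11. Havcr1, the tubular injury marker KIM-1, was at 3.59 in hypoxia and 3.32 in control.

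Of the 399 higher genes 325 belonged to no list, 81.5%, as did 92.1% of all measured genes, and 162 had no RefSeq symbol. Selenbp1, a selenium-binding protein, was at 5.62 in hypoxia and 2.31 in control, a 9.96-fold difference. Hsd17b2, a steroid dehydrogenase, was higher by 3.24 and Hyal1, a hyaluronidase, by 2.48, from control levels of -3.24 and -3.00 that were near background. Bend5 was higher by 2.82, with 2.51 from a second probe. Uggt2, by contrast, was higher by 2.55 on its brighter probe while its second probe gave -0.08. Fam162a (rows 1 to 64), a mitochondrial protein known as a HIF target, was at 6.84 in hypoxia and 4.65 in control. Nampt, an enzyme of NAD synthesis, was at 4.10 in hypoxia and 2.80 in control. Of the higher genes 61 had a further measured probe, and in 46 of these the median of the other probes was also at least 2-fold higher.

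The lower genes were few, and 13 of the 45 were bright on both arrays. Sprr2g, a small proline-rich protein, was at 2.69 in hypoxia and 4.42 in control. Txnip, which restrains glucose uptake and binds thioredoxin, was at -0.87 in hypoxia and 0.78 in control. Rasl11b (-1.30), Irx3 (-1.43, rows 1 to 64), Wnk4 (-1.10) and the zinc exporter Slc30a1 (-1.07) were lower as well. Psmd9 had the largest negative difference, -2.62, but its second probe gave -0.19, and Med17 followed at -2.01. Of the 45 lower genes 8 had a further measured probe, and in 2 of these the others were also at least 2-fold lower.

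Where only 1 of the 2 arrays was well above background, a difference is a bound. By such bounds 441 of the 572 genes above background in hypoxia only were at least 2-fold higher in hypoxia. Of the 1486 genes above background in control only, 37 were at least 2-fold lower. The lowest signal called well above background was -3.08 in hypoxia and -3.65 in control, so a bound is easier to reach on the higher side. Only 224 of the 441 had spots in rows 65 to 384. Tmem74b (row 227) was at least 13.0-fold higher. Il12rb2, Caps2, Meioc and Mageb1, with the other bounds among the 5 highest beside Egln3, all had spots in rows 1 to 64. On the lower side Iffo1 was at least 3.25-fold, Acot1 3.09-fold and Cldn2, a claudin of the proximal tubule, 2.80-fold lower in hypoxia than in control.

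A second oxygen comparison could be made from the other 4 arrays, which share no array with the first. The mean of the Triple stimuli and Triple stimuli + Rapamycin arrays, both at 1% oxygen, was set against the mean of the High glucose and High FFAs arrays, both at 20%. A gene was called there when the means differed at least 2-fold and both arrays of one side lay beyond both of the other. It differs from the first comparison in stimuli besides oxygen, and the 2 arrays of a side are different conditions and not replicates. Its sides also differ in more than oxygen. By the labels palmitate at 150 µM was given on both arrays at 1% but at 20% on the High FFAs array only. Rapamycin was given on the Triple stimuli + Rapamycin array only. Effects of oxygen and of these stimuli cannot be told apart there. The second comparison shares the layout of the slide, and position and oxygen cannot be told apart there either. There, 154 of 15078 genes were higher at 1% oxygen, 1.02%, and 71 were lower, 0.471%. With spots in rows 65 to 384 the shares were 0.95% and 0.487%.

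Of the 327 genes higher in hypoxia alone that could be measured in the second comparison, 86 were called higher there too, 26.3%, and they made up 55.8% of the 154. A difference above 0 was seen for 308 of the 327, beside 41.6% of all genes, and the median of the 327 was 0.81 there beside 1.30 for the same genes in hypoxia alone. With spots in rows 65 to 384 the count was 68 of 256, 26.6%. Mgarp, Ankrd37 and Bnip3 differed by 3.56, 3.18 and 2.35 in the second comparison. Pdk1 and Slc16a3 differed by 2.04 and 1.95, and Selenbp1 by 1.84. Krt42 and Krt19 differed by 2.36 and 2.22 there, beside 2.17 and 2.14 in hypoxia alone. Pfkfb3 and Vegfd, in contrast, differed by 0.54 and 0.29. Genes called higher in both comparisons held ACGTG in 26 of 53 promoters, 49.1%. The share was 32.6% over all genes higher in hypoxia alone, which include these genes, and 26.3% over all measured genes. The differences between these shares were not tested.

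Of 43 lower genes measured in the second comparison 13 were called lower there, 30.2%, beside 0.471% of all genes. They made up 18.3% of the 71 genes called lower there. Of the 43, 37 were below 0, where 41.6% of all genes were above 0. Psmd9 and Med17 differed by -0.37 and -0.30. Gsta2 and Sprr2g differed by -1.43 and -2.08. The respiratory and protein-turnover lists kept medians below 0, at -0.30 for complex I, -0.30 for ATP synthase, -0.23 for mitochondrial ribosomal proteins and -0.29 for the proteasome. The median of Myc and ribosome biogenesis was -0.04 there, against -0.32 in hypoxia alone, and that of immediate early factors was 1.04, against 0.02. Cholesterol genes had a median of -0.42 there and 0.02 in hypoxia alone. Whether those lists differ between the comparisons was not tested.

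**Figure D5:**
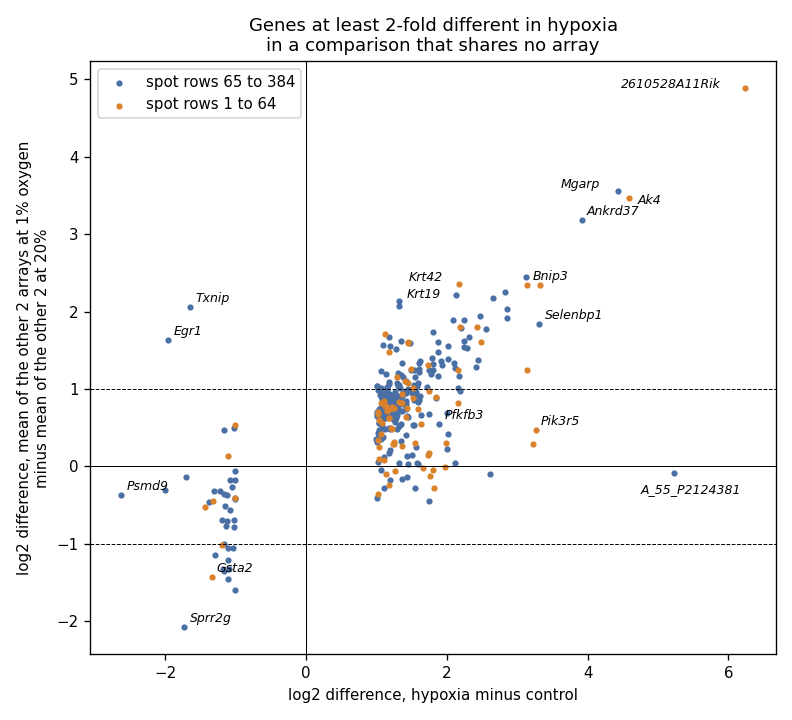
Genes at least 2-fold different in hypoxia alone are plotted by their log2 difference, hypoxia minus control (horizontal axis), and by the difference between the means of the other 2 arrays at 1% and the other 2 at 20% oxygen (vertical axis), in blue for spot rows 65 to 384 and orange for rows 1 to 64. Of 327 higher genes 308 lie above 0 on the vertical axis, and among the lower genes Egr1 and Txnip are the 2 that lie past the dashed line for 2-fold higher.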

How the data were processed

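Total RNA of mProx24 cells was labelled with Cy3 and hybridised to 1-colour Agilent arrays of 384 rows and 164 columns of spots, per the labels and file headers. Signals were read by the authors with Agilent Feature Extraction 10.7.3.1, per the submitters' processing notes, and the deposited signal intensity is linear, detrended within each array and not scaled between arrays, per the file headers. A ratio fills the deposited value table, namely that signal over the 75th percentile of its array, read from its values. Its columns labelled High glucose and High FFAs hold each other's scanner values, whereas Hypoxia and Control hold their own, with column medians of 0.0562 and 0.0505. The second oxygen comparison averages that pair and does not depend on which label is right.

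From the intensity, log2 minus log2 of the 75th percentile over non-control spots was taken, outlier-marked spots (296) were left out, spots of a probe were averaged, and each gene took its brightest probe. Symbols were updated by accession and name through the RefSeq table of GRCm38.p6, which matched 22388 of 34797 names. The 75th percentile signal was 300.2 in hypoxia and 363 in control, 40.9% of spots in hypoxia and 43.8% in control were well above background, and 0 were saturated. With 1 array a condition, that number sets the precision.

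The genes named, the 54 gene lists (1249 of 1518 genes measured), the marker lists and the alternatives were chosen with earlier results of these data known, so no list is independent evidence. Named were the 20 highest and lowest differences in rows 65 and above, the 10 highest and 5 lowest in rows 1 to 64, the 15 highest and 10 lowest among bright genes, the 5 highest and lowest bounds, and in each list the 5 largest differences and members named for their role. Other genes outside that rule, such as Bsg, Nampt, Ccng2, Epor, Slc37a4 and Plvap, were chosen after their values were seen. So were the features under Other observations. Python 3.11.15, numpy 2.4.6, pandas 2.3.3, R 4.3.3 and limma 3.58.1 (normexp with offset 50, and quantile normalization) were used. The calling step was run on simulated data with planted changes well past 2-fold, which checks the code and not the error of arrays. A few genes that the naming rule covers are not reported here. No exon or UTR annotation of mm9 was used here.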

Additional observations from a re-analysis of the deposited data

Results flagged for a closer look

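Egr1 and Txnip, both lower in hypoxia alone, were called higher in the second oxygen comparison, with every 1% array of one comparison on the opposite side of its 20% arrays from the other. Egr1, an immediate early transcription factor, differed by -1.96 in hypoxia alone and by 1.63 in the second comparison, with levels of 1.24 in hypoxia, 4.55 in triple stimuli and 4.93 with rapamycin, against 3.20 in control and 3.06 and 3.15 on the arrays labelled High glucose and High FFAs. Txnip differed by -1.65 in hypoxia alone and by 2.06 in the second comparison, with levels of -0.87, 3.33 and 3.68 on the 1% arrays in the same order, against 0.78, 0.55 and 2.34 on the 20% arrays. The difference between the comparisons was not tested, and the stimuli besides oxygen differ between them.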

How the results depend on the processing

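Each alternative changed 1 choice. The count of higher genes, 399 of 15836, was 841 of 17894 where 1 array well above background was enough and 194 of 10469 among bright genes (level at least 0 on both arrays), and lay within 1.5 times of 399 under the other 6 alternatives. The count of lower genes, 45, was 72 after quantile normalization, 17 after normexp background correction, 82 with 1 array enough and 13 among bright genes. Of the 399 higher genes 340 were also called after quantile normalization, 267 after normexp, 380 after centring by row band and level, and 390 in the deposited value table. In the second oxygen comparison bright genes gave 90 higher, beside 154, and 18 lower, beside 71. Among list medians more than 0.077, the spread between spots, from 0, those that changed side were cytosolic ribosomal proteins (-0.137 after quantile normalization) and MAP kinase phosphatases and Sprouty feedback (0.018 with the median over probes, beside -0.11). For the named genes 297 of 2254 alternative values moved by more than the spread between spots, and 0 of those at least 2-fold different turned to the other side. Of these values 204 under the brightness filter and 232 under the spot-row filter are the main values and could not move. The deposited value table, which holds the same signal scaled, and the alternative with 1 array enough each moved 0 of 303. Normexp moved 145 of 303. Medians nearer to 0 have no settled side. The cause of these shifts was not tested, apart from the filters, which change how many genes are counted. No paired analysis was possible because each condition has 1 array and the labels give no replicate numbers. Dim genes carry the widest error, and differences from control levels near -3 are the least certain.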

Other observations

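Of array features that carry no RefSeq symbol 162 of 4018 were called higher, 4.03%, and of genes with a symbol 237 of 11818, 2.01%. Among features with a mean level above 7 the shares were 12.1% of 347 without a symbol and 2.99% of 334 with one. The 42 higher features of that level without a symbol lay close together, with differences between 1.00 and 1.30 and a median of 1.12. Of these, 34 had spots in rows 65 to 384. In the second oxygen comparison they lay between 0.62 and 0.90. Their names in the files did not match a RefSeq symbol, and what they detect was not tested.

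The highest difference of all belonged to 2610528A11Rik (spot row 4), at 4.93 in hypoxia and -1.30 in control, and it differed by 4.88 in the second comparison. The probe A_55_P2124381 (row 118) had a difference of 5.22, at 4.42 in hypoxia and -0.80 in control, but lay between 4.19 and 4.53 on the other 4 arrays, so the control array alone was low.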
